A study of Mus musculus with 8 samples.

Results

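The pre-B cell receptor and its proximal signalling proteins were followed through 9 genes, Vpreb1, Vpreb2, Vpreb3, Igll1, Cd79a, Cd79b, Blnk, Blk and Btk. They were taken by gene symbol from a table of 34745 genes, and each symbol matched 1 row. Bulk RNA had been sequenced from 3 lymphoid progenitor populations of the fetal liver of untreated wild-type B6 mice, with 3 CLP, 3 ILCP and 2 ILC1/3P libraries. CLP were sorted as Flt3+, ILCP as Flt3– α4β7+ PD-1+ CD94– and ILC1/3P as Flt3– α4β7+ PD-1– CD94+, and every gate also required Lin–, CD45+, CD127+ and CD25– live cells. The antibodies of the lineage cocktail are not listed in the labels, so whether it held a B cell marker is not known here. The labels do not give a gestational day, and they carry an entry of 6 to 8 weeks that the fetal tissue leaves unexplained. No label ties a library to an animal or litter of its own. The p-values therefore describe the spread among these libraries, part or all of which may be technical.

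The pre-B cell receptor is the checkpoint receptor of early B cell development. A newly rearranged µ heavy chain pairs with a surrogate light chain, made of a VpreB protein (Vpreb1 or Vpreb2) and λ5 (Igll1), and the complex signals through Igα (Cd79a) and Igβ (Cd79b). Src family kinases such as Blk phosphorylate the tyrosine motifs of Igα and Igβ, Syk docks there, and the adaptor Blnk joins Syk to the kinase Btk and to phospholipase C-γ2. T cells and NK cells use related proteins, with Zap70 beside Syk, Lcp2 (SLP-76) beside Blnk and Lck beside Blk.

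Total counts were 4991939 to 7167619 per CLP library, 6043940 to 6905448 per ILCP library and 6310739 to 8082476 per ILC1/3P library. Genes of the sort markers were read first. Flt3 had 401 to 570 CPM (counts relative to library size, scaled by TMM) in CLP, at most 1.28 CPM in ILCP and no count in ILC1/3P. Pdcd1, which encodes PD-1, had no count in CLP and 44.6 to 107 CPM in ILCP, and the ILC1/3P libraries, sorted as PD-1–, still had 10.2 and 17.5 CPM. Klrd1, which encodes CD94, had 1184 and 1629 CPM in ILC1/3P, against 19.1 to 71.5 CPM in ILCP and 40.8 to 65.5 CPM in CLP. A count of 0 in 1 library allows up to 3 counts, or 0.340 to 0.709 CPM at these depths, and such limits cover counting error only.

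The 9 genes took 0.364% to 0.426% of all counts in the CLP libraries, 0.0191% to 0.0213% in ILCP and 0.00980% to 0.0116% in ILC1/3P. In the bulk libraries, fewer expressing cells and less RNA per cell cannot be told apart. All 9 genes passed the filter on low counts, and for each of them the lowest CLP library lay above the highest library of either other population. The share of all genes tested that separate in this way was not counted, so no result is drawn from it. By edgeR's quasi-likelihood test, 8 of 9 had lower counts in ILCP than in CLP, and 9 of 9 did so in ILC1/3P. Among all 13436 genes tested, 2.87% were lower and 3.91% higher in ILCP, and 11.7% were lower and 11.8% higher in ILC1/3P, each against CLP. None of the 9 was higher in either comparison, also at an unadjusted p under 0.05 and by DESeq2. Their median log2 fold change was -7.87 in ILCP and -7.18 in ILC1/3P, against 0.0069 and -0.25 for all genes tested. These 2 comparisons share the CLP libraries.

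**Figure D1:**
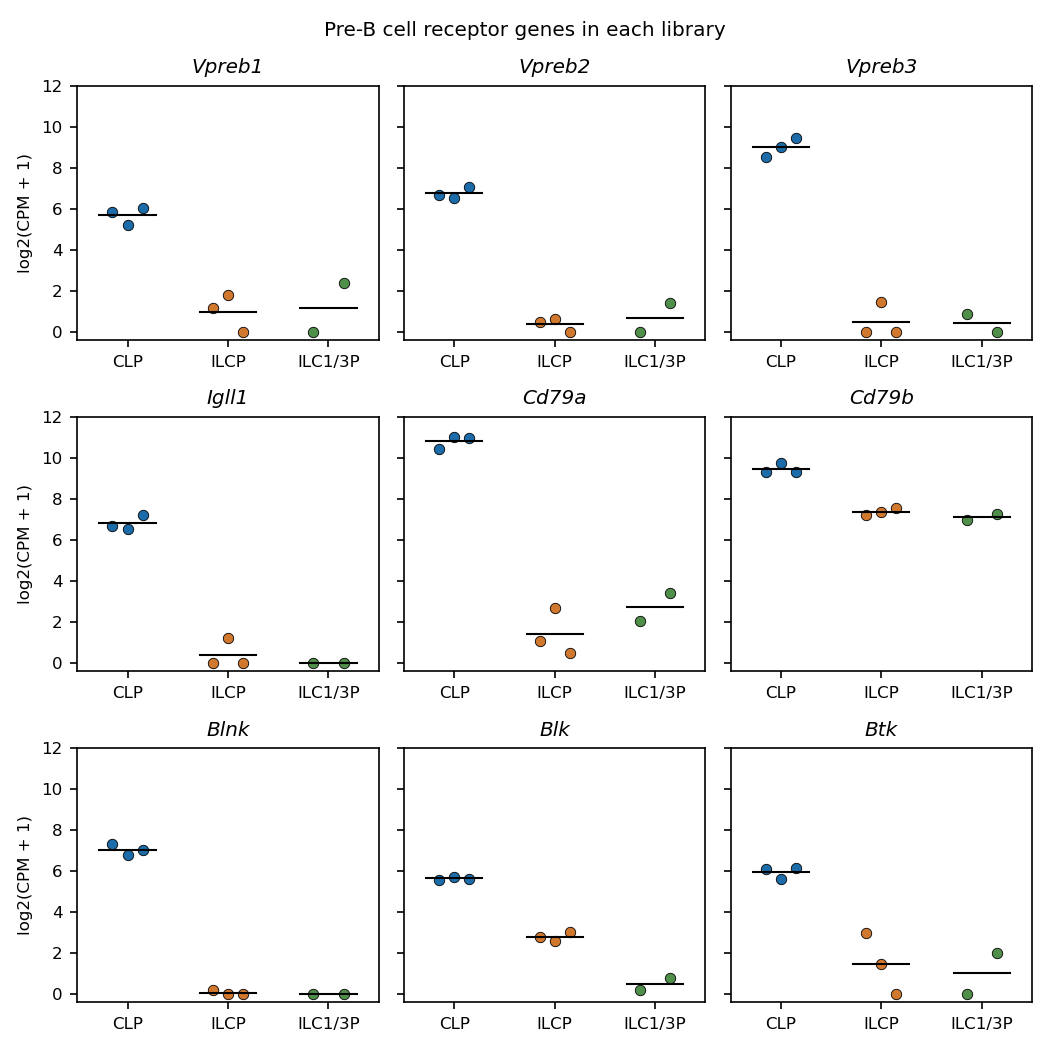
Each panel shows 1 gene, with log2(CPM + 1) on the vertical axis and the 3 sorted populations on the horizontal axis. Points are libraries (3 CLP, 3 ILCP, 2 ILC1/3P) and bars are group means of the plotted values. Cd79b keeps a level of over 120 CPM in each ILCP and ILC1/3P library, whereas Blnk is at or near 0 in all 5.

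Vpreb1, Vpreb2 and Igll1 lie on mouse chromosome 16 (mm10). Igll1 spans 16860671 to 16863985 and Vpreb1 16868402 to 16870843, both on the minus strand, and Vpreb2 spans 17980565 to 17981080 on the plus strand. Vpreb3 lies apart, on chromosome 10 at 75943057 to 75949657. Vpreb1 and Vpreb2 are near copies of each other, and the GENCODE transcripts Vpreb1-201 (766 bases) and Vpreb2-201 (759 bases) were identical at 739 of 766 aligned positions, with a longest shared run of 196 bases. Reads from such a run fit both genes, so the split of counts between Vpreb1 and Vpreb2 is uncertain. The table's Vpreb2 starts at the coding sequence of the GENCODE transcript, so its counts may leave out reads of the untranslated ends. The likeness reaches upstream of the coding transcripts, although noncoding Vpreb1 transcripts start farther upstream still. The stretches below, from RefSeq's promoter windows (GRCm38.p6), are 5′ to 3′ on each gene's strand, at chr16:16869256-16869361 for Vpreb1 and chr16:17980315-17980420 for Vpreb2. They were identical at 104 of 106 bases, and capitals mark the E box CAGGTG, a motif that E2A proteins can bind.
Vpreb1: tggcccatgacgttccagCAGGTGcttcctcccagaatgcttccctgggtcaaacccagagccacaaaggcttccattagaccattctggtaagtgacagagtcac
Vpreb2: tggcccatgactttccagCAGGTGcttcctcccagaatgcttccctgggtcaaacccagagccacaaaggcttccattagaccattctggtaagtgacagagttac

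The upstream bases of Igll1, the partner of both VpreB proteins, and of Cd79a, the most abundant member in CLP, are shown for the same motifs. The Igll1 window is chr16:16863986-16864235 on the minus strand, and its capitals mark, in order, CCCNNGGG (a palindrome that EBF1 can bind), CAGCTG (another E box) and CAGGTG read on the other strand. The Cd79a stretch is chr7:24897247-24897380 on the plus strand, with CAGGTG in capitals.
Igll1: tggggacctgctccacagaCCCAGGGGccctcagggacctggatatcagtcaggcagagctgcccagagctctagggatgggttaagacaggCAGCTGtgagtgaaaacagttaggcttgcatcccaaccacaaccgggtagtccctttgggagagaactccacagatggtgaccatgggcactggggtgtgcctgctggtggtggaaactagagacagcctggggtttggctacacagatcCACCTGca
Cd79a: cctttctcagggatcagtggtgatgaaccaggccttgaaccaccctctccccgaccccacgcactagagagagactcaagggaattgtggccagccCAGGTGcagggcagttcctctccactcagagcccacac

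RefSeq windows were matched for 7 of the 9 genes, those other than Cd79b and Blk, and 4 motifs were searched on both strands in the 250 bases before each start. CAGGTG was found for 5 of 7 (Vpreb1, Vpreb2, Igll1, Cd79a and Blnk), against 17.2% of all 32851 windows. The matches of Vpreb1 and Vpreb2 lie in the near-identical stretches printed above, so they are not independent of each other. CAGCTG was found for Vpreb2 and Igll1, against 13.0% of windows. TGGGAA, the Ikaros core, was found for Vpreb2 and Btk (21.6% of windows) and CCCNNGGG for Igll1 alone (11.8%). In Vpreb2 the TGGGAA and CAGCTG matches overlap, 64 to 55 bases before the RefSeq start and past the end of the stretch printed above. That start is also the start of the table's Vpreb2, at the coding sequence of the GENCODE transcript. CAGGTG lies 88 to 83 bases before the start of Vpreb1 and 232 to 227 bases before that of Vpreb2. The bases searched for these near copies therefore do not line up. A match is a run of letters and not a measured binding site.

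Vpreb1 had 56.8, 35.9 and 65.5 CPM in the CLP libraries, 1.28, 2.49 and 0 CPM in ILCP, and 0 and 4.25 CPM in ILC1/3P. CLP averaged 52.7 ± 15.2 CPM (SD, n = 3), above every library of the other populations. The log2 fold change was -5.37 ± 1.23 (SE) in ILCP (edgeR quasi-likelihood test, Benjamini-Hochberg adjusted p = 0.0213) and -4.69 ± 1.43 in ILC1/3P (adjusted p = 0.0342). Both calls were lost without any 1 of the CLP libraries. The first was also lost without ILCP replicate 1 or 3, and the second without ILC1/3P replicate 1, with no filter on low counts and by DESeq2 (highest adjusted p 0.096 and 0.102). In the GENCODE annotation an exon of Vpreb1 overlaps Top3b on the opposite strand. Top3b had 131, 198 and 156 counts in CLP, 169, 80 and 108 in ILCP and 9 and 5 in ILC1/3P, and its part in the Vpreb1 counts was not tested.

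Vpreb2, which encodes the second VpreB protein, had 103, 93.6 and 132 CPM in CLP, 0.427, 0.553 and 0 CPM in ILCP, and 0 and 1.65 CPM in ILC1/3P. The fall was larger than the spread in both populations, at -8.30 ± 0.91 in log2 for ILCP (adjusted p = 0.000149) and -7.18 ± 1.04 for ILC1/3P (adjusted p = 0.000518). With the counts of Vpreb1 and Vpreb2 added into 1 gene, an alternative chosen after seeing the data, the log2 fold changes were -6.66 in ILCP (adjusted p = 0.00268) and -5.87 in ILC1/3P (adjusted p = 0.00587). All ILC1/3P counts of both genes came from replicate 2.

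Igll1 showed 101, 92.0 and 147 CPM in the CLP libraries and 10 counts in a single ILCP library, replicate 2 (1.38 CPM), with no count in the other ILCP libraries or in ILC1/3P. It was lower in ILCP by a log2 fold change of -7.87 ± 0.97 (adjusted p = 0.000523). From pooled counts against a floor of 3, it was at least 391-fold lower in ILC1/3P (adjusted p = 0.00048).

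Vpreb3 encodes a relative of VpreB that binds newly made µ heavy chains inside the cell. It had 375, 513 and 700 CPM in CLP, 13 counts in ILCP, all in replicate 2 (1.80 CPM), and 5 counts in ILC1/3P, all in replicate 1 (0.822 CPM). The log2 fold changes were -9.73 ± 0.88 in ILCP (adjusted p = 4.36e-05) and -10.07 ± 1.12 in ILC1/3P (adjusted p = 0.000108). ILCP replicate 2 thus held every ILCP count of both Igll1 and Vpreb3, and without it both genes were at 0 there.

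Cd79a and Cd79b encode the Igα and Igβ chains, which carry the signal for every form of the B cell receptor. Cd79a (chromosome 7, 24897381 to 24902197) had 1407, 2089 and 1991 CPM in CLP. It fell to 1.14, 5.53 and 0.422 CPM in ILCP and to 3.13 and 9.69 CPM in ILC1/3P, or at most 0.53% of the CLP mean in any library. The log2 fold changes were -9.58 ± 0.78 (adjusted p = 1.77e-05) and -8.20 ± 0.89 (adjusted p = 9.24e-05). Reads were still present in all 5 of these libraries, from 3 to 41 counts each.

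Cd79b (chromosome 11, 106311341 to 106314762) fell by a smaller fold than Cd79a. Its CLP libraries had 637, 873 and 637 CPM, its ILCP libraries 148, 165 and 185 CPM, and its ILC1/3P libraries 126 and 153 CPM. The ILCP libraries thus stood at 20.7% to 25.9% of the CLP mean and the ILC1/3P libraries at 17.6% to 21.4%, with no overlap with CLP. The log2 fold changes were -2.10 ± 0.23 (adjusted p = 0.000143) and -2.36 ± 0.27 (adjusted p = 0.000131). The authors' FPKM, which are per length, gave a Cd79b to Cd79a ratio of 0.221 to 0.313 in CLP, 20.7 to 304 in ILCP and 10.9 to 27.9 in ILC1/3P. Cd79a thus led in every CLP library and Cd79b in every other library.

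**Figure D2:**
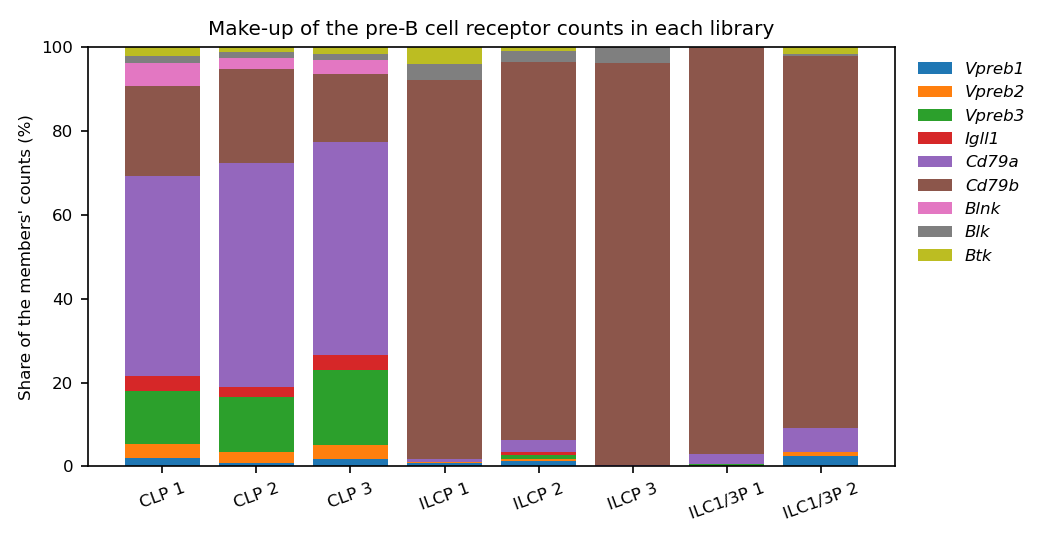
Bars show how the counts of the 9 genes divide among them in each library, in percent of their sum and not corrected for gene length. Cd79a gives 47.6% to 53.5% of these counts in CLP, and Cd79b gives 89.9% to 96.1% in ILCP and 88.8% to 96.8% in ILC1/3P.

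Cd79b made up 16.2% to 22.4% of the members' counts in CLP and nearly all of them in the other populations. In levels per length (FPKM), CLP was led by Cd79a at 1411 ± 197 (SD, n = 3), with no overlap with the next gene. Vpreb3 (438 ± 113), Cd79b (384 ± 62.2) and Vpreb2 (289 ± 48.5) followed with overlapping ranges between neighbours. Igll1 (44.8 ± 10.5) came next, apart from its neighbours. Vpreb1 (26.5 ± 8.04), Blnk (24.4 ± 6.69) and Blk (22.4 ± 0.964) overlapped in turn, and Btk (17.6 ± 3.97) was lowest, its range apart from that of Blk. The order of the lower genes and the overlap of Cd79b with Vpreb2 depended on the length used. The length implied by the authors' values was 2263 bases for Vpreb1 and 429 for Vpreb2, against 1199 and 759 bases of GENCODE exons. For Cd79b it was 2105 bases, against 1431 bases of GENCODE exons. Per kilobase of GENCODE exons, Cd79b (500 ± 95.2 CPM) and Vpreb2 (144 ± 26.4 CPM) lay apart. On the same scale Igll1 (52.5 ± 13.7 CPM) and Vpreb1 (44.0 ± 12.7 CPM) overlapped, and Btk (19.5 ± 3.77 CPM) stood above Blk (18.1 ± 0.748 CPM) with overlapping ranges.

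In ILCP the FPKM order was Cd79b at 87.1 ± 8.75 (n = 3), then Blk at 2.71 ± 0.556, with the other genes at 1.73 or below and overlapping between neighbours. In ILC1/3P it was Cd79b at 46.9 ± 2.62 (n = 2), then Cd79a at 3.04 ± 2.01, with Igll1 and Blnk listed at 0. Cd79b was apart from the next gene in both.

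Blk is a Src family kinase of B cells that phosphorylates Igα and Igβ. It spans 63372837 to 63417187 on chromosome 14. It had 46.9, 51.0 and 48.8 CPM in CLP, 5.97, 4.97 and 7.18 CPM in ILCP, and 0.164 and 0.709 CPM in ILC1/3P. The 3 populations did not overlap, and the ILC1/3P values rested on 1 and 3 counts. ILCP retained 10.2% to 14.7% of the CLP mean (log2 fold change -3.01 ± 0.51, adjusted p = 0.00336) and ILC1/3P 0.336% to 1.45% (-6.85 ± 0.79, adjusted p = 0.000133). Blk was the only one of the 9 genes to pass the threshold between ILC1/3P and ILCP, at -3.83 ± 0.73 (adjusted p = 0.00497). That call was lost when only the libraries of these 2 populations were fitted (adjusted p = 0.162).

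Blnk, the adaptor that brings Btk and phospholipase C-γ2 to Syk, had 162, 108 and 131 CPM in CLP. It had 1 count among the 3 ILCP libraries and none in ILC1/3P. The ratio of pooled counts between CLP and ILCP was 2943, with a 95% counting interval of 528 to 116268 (adjusted p = 4.96e-06). ILC1/3P was at least 473-fold lower than CLP (adjusted p = 1.39e-05).

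Btk, the Tec family kinase that activates phospholipase C-γ2, lies on chromosome X at 134542336 to 134583570. It had 66.7, 47.8 and 69.8 CPM in CLP, 6.83, 1.80 and 0 CPM in ILCP, and 0 and 3.07 CPM in ILC1/3P. The ILCP libraries ran from 48 counts to none, and replicate 1 alone held 48 of the 61. The ILCP difference did not pass the threshold (-4.41 ± 1.21, adjusted p = 0.0511), and its adjusted p ran from 0.0156 to 0.248 over the alternatives. The ILC1/3P difference passed (-5.40 ± 1.56, adjusted p = 0.0265). It was lost without any 1 of the CLP libraries or ILC1/3P replicate 1, with no filter on low counts and with the replicate number as a block (highest adjusted p 0.162).

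**Figure D3:**
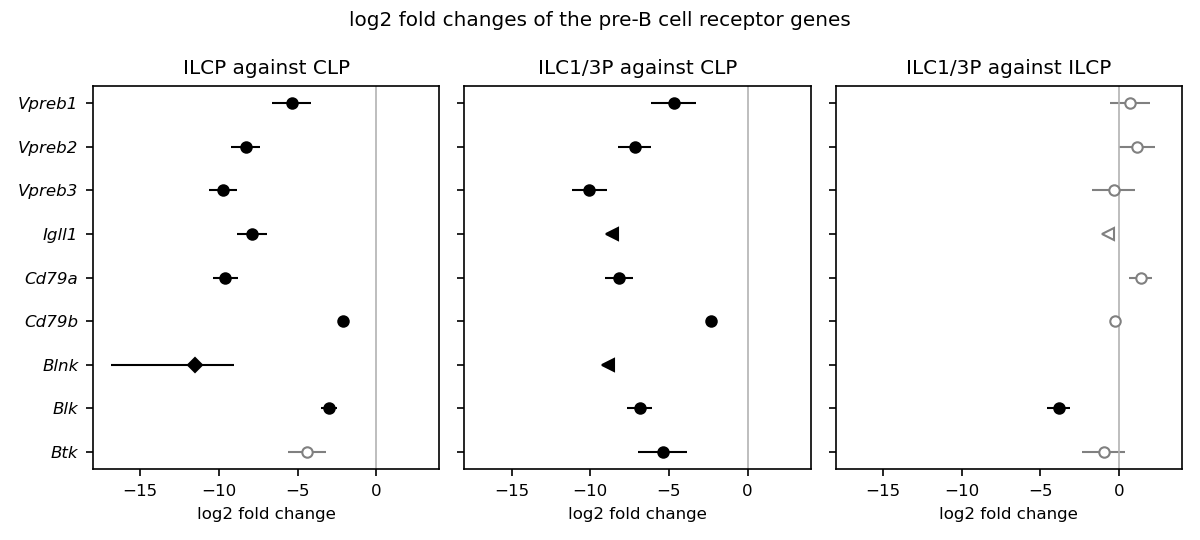
Horizontal axes give the log2 fold change in 3 comparisons, for the 9 genes listed at the left. Circles are edgeR estimates with their SE. Triangles are bounds where the first group had no count, with the true change at or below them, and the diamond is the ratio of pooled counts of Blnk with its 95% counting interval. Filled symbols passed the threshold of 0.05 on the adjusted p. Blnk has no value in the third panel because both groups held at most 3 counts. In that panel the only filled symbol is Blk.

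Between ILC1/3P and ILCP, 1 of the 9 genes was lower and 0 higher, where 8.25% of all genes were lower and 8.06% higher. At an unadjusted p under 0.05, 1 was lower and 0 higher, as by DESeq2. The median log2 fold change was -0.34, or -0.30 over 8 genes with Igll1 at its bound and Blnk left out, against -0.23 for all genes. Vpreb2, Vpreb3, Igll1 and Blnk passed the filter on low counts through their CLP counts. They held 7, 13, 10 and 1 counts in ILCP and 7, 5, 0 and 0 counts in ILC1/3P. At such counts a call was hardly possible, so neither the 1 of 9 nor the median is read as a result about the members. Cd79b differed by -0.25 ± 0.25 (adjusted p = 0.542). Cd79a differed by 1.38 ± 0.74 (adjusted p = 0.236), and without ILCP replicate 2, which held 40 of its 51 ILCP counts, the difference was 3.02 (adjusted p = 0.012). Vpreb1, Vpreb2, Vpreb3 and Btk differed by 0.68, 1.13, -0.34 and -0.99 with adjusted p-values of 0.556 to 0.910, from 5 to 61 counts per population.

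Other proteins that carry the receptor's signal were read from a list of their own. Of its 20 genes, 2 fell in ILCP and 3 in ILC1/3P against CLP, with 0 higher in either (0 at an unadjusted p under 0.05, and 0 by DESeq2). DESeq2 gave 4 and 5 lower, and an unadjusted p under 0.05 gave 7 and 8. The 3 in ILC1/3P became 1 without CLP replicate 1 or ILC1/3P replicate 1, 5 without ILCP replicate 2 and 8 with library size as the sole scaling. Of all genes tested, 2.87% were lower and 3.91% higher in ILCP, and 11.7% were lower and 11.8% higher in ILC1/3P. The list's 3 lower genes in ILC1/3P lay near that share. Its median log2 fold changes were -0.59 in ILCP and -0.92 in ILC1/3P, against 0.0069 and -0.25 for all genes tested. These values for all genes are also the reference for the lists below. Syk, the kinase that docks on Igα and Igβ, fell in both ILCP and ILC1/3P. It had 72.4, 69.7 and 40.6 CPM in CLP, 12.1, 10.4 and 5.91 CPM in ILCP and 4.93 and 2.60 CPM in ILC1/3P (-2.69 ± 0.48, adjusted p = 0.00512, and -3.99 ± 0.62, adjusted p = 0.00081). Plcg2, the phospholipase downstream of Btk, had 162, 108 and 131 CPM in CLP, 23.6, 38.6 and 43.1 CPM in ILCP and 75.0 and 79.9 CPM in ILC1/3P. It was lower in ILCP than in CLP (-1.93 ± 0.31, adjusted p = 0.00231) and higher in ILC1/3P than in ILCP (1.14 ± 0.33, adjusted p = 0.0371), while ILC1/3P against CLP did not pass (-0.79 ± 0.34, adjusted p = 0.119). The call between ILC1/3P and ILCP was lost in 10 of 14 alternatives, among them the replicate block and leaving out any 1 library other than CLP replicate 1 (highest adjusted p 0.303). The Src kinase Lyn (-1.39 ± 0.36, adjusted p = 0.0157) and the adaptor Lat2 (-1.16 ± 0.37, adjusted p = 0.0416) were lower in ILC1/3P, CLP being the reference. Both calls were lost without CLP replicate 1 or ILC1/3P replicate 1, and that of Lat2 also without CLP replicate 3, ILCP replicate 3 or ILC1/3P replicate 2 and under the replicate block (highest adjusted p 0.0925 for Lyn and 0.176 for Lat2). Pik3ap1, an adaptor for phosphoinositide 3-kinase, had 13.8 to 14.5 CPM in CLP and at most 1.97 CPM elsewhere without passing the threshold (adjusted p = 0.0939 and 0.0899), which it passed in both by DESeq2 (lowest adjusted p over the alternatives 0.00544 and 0.0143).

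Of 12 coreceptors and inhibitors of the B cell receptor, 3 were lower in ILCP (median -2.71) and 5 in ILC1/3P (median -2.58), and 0 were higher in either (0 at an unadjusted p under 0.05, and 0 by DESeq2). DESeq2 gave 6 and 7 lower, and the 3 in ILCP became 1 without CLP replicate 2 or 3 and 5 without either ILC1/3P library. Cd72, an inhibitory receptor, had 56.1 to 70.1 CPM in CLP, 6.08 to 8.31 CPM in ILCP and 4.02 and 6.74 CPM in ILC1/3P (-3.11 ± 0.43, adjusted p = 0.000837, and -3.49 ± 0.52, adjusted p = 0.000645). The lipid phosphatase Inpp5d fell in both (-1.91 ± 0.46, adjusted p = 0.0265, and -2.0 ± 0.54, adjusted p = 0.0186). Its first call was lost without any 1 of the CLP libraries or ILCP replicate 3, and its second without CLP replicate 1 or ILC1/3P replicate 1 and under the replicate block (highest adjusted p 0.107 in both). Fcrla, an Fc receptor-like protein of B cells, had 6.12 to 15.5 CPM in CLP, 1 count in ILCP and none in ILC1/3P, and was lower in both (adjusted p = 0.0167 and 0.0125). Both calls were lost without CLP replicate 2, and the first also without CLP replicate 3 or ILCP replicate 1 or 3 and under the replicate block (highest adjusted p 0.102 and 0.0555). Cd81, a tetraspanin of the B cell coreceptor complex, had 691 to 799 CPM in ILCP and 121 and 208 CPM in ILC1/3P against 845 to 958 CPM in CLP. It was lower in ILC1/3P than in CLP (-2.43 ± 0.29, adjusted p = 0.000153) and did not pass in ILCP (adjusted p = 0.68). The phosphatase Ptpn6 was lower in ILC1/3P (-1.92 ± 0.40, adjusted p = 0.00498).

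Transcription factors of B cell development, several of which act on these genes, formed another list. Of 14 regulators, 8 were lower and 1 higher in each of ILCP (median -4.40) and ILC1/3P (median -3.78) against CLP. In ILC1/3P, 5 were lower without CLP replicate 1 or 3 and 4 without ILC1/3P replicate 1. Ebf1, which switches on many of the receptor genes, had 226, 179 and 182 CPM in CLP, at most 5.07 CPM in ILCP and at most 0.709 CPM in ILC1/3P (-6.26 ± 0.66, adjusted p = 0.000112 in ILCP). In ILC1/3P it was down to 3 counts, a pooled ratio of 686 with a 95% counting interval of 235 to 3329 (adjusted p = 9.04e-05). Pax5, which commits cells to the B lineage, had 25.7, 23.2 and 15 CPM in CLP, 1 count in ILCP and none in ILC1/3P, at least 74.3-fold lower than CLP (adjusted p = 0.00204 and 0.00228). The coactivator Pou2af1 had 55.9 to 86.7 CPM in CLP and no count elsewhere, at least 531-fold lower in ILCP (adjusted p = 6.94e-05) and at least 256-fold lower in ILC1/3P (adjusted p = 0.000144). Spi1 (PU.1) fell in both, from 190 to 254 CPM to at most 13.0 CPM (adjusted p = 0.0018 and 0.00408), and both calls were lost with no filter on low counts and the second without ILC1/3P replicate 2 (highest adjusted p 0.052 and 0.0607). Irf8 had 98.1 to 295 CPM in CLP, at most 2.28 CPM in ILCP and 16 and 27.4 CPM in ILC1/3P. It was lower than CLP in both (-7.62 ± 0.82, adjusted p = 0.000131, and -3.05 ± 0.74, adjusted p = 0.0116) and higher in ILC1/3P than in ILCP (4.57 ± 0.79, adjusted p = 0.00302). Its ILC1/3P call against CLP was lost when replicate 1 of either population was left out (highest adjusted p 0.0648). Ikzf3 (Aiolos) went the other way, with at most 1.33 CPM in CLP, 119 to 212 CPM in ILCP and 35.0 and 66.7 CPM in ILC1/3P (8.38 ± 0.88, adjusted p = 0.000113, and 6.80 ± 0.87, adjusted p = 0.000235).

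The µ heavy chain that the surrogate light chain binds was followed only through its constant gene, Ighm. Ighm had 4752, 6351 and 5501 CPM in CLP, 388, 260 and 507 CPM in ILCP and 1077 and 443 CPM in ILC1/3P. It was lower in both (-3.85 ± 0.37, adjusted p = 6.81e-05, and -2.86 ± 0.42, adjusted p = 0.00057), and no library of either reached the CLP range. Ighm counts do not show whether a heavy chain was rearranged, since unrearranged alleles are also transcribed. Of 6 immunoglobulin constant genes 4 were tested, of which 2 were lower in ILCP and 1 in ILC1/3P, with 0 higher in either (0 at an unadjusted p under 0.05, and 0 by DESeq2). Ighd was the other gene lower in ILCP (-5.38 ± 1.42, adjusted p = 0.0439). That call was lost in 8 of 14 alternatives, among them DESeq2 and leaving out any 1 CLP library, ILCP replicate 2 or ILCP replicate 3 (highest adjusted p 0.217). The light chain genes Igkc and Iglc2 overlapped between populations, at 1.10 to 21.5 CPM and 0.340 to 9.49 CPM in CLP.

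The T and NK relatives of these proteins were mostly higher outside CLP. Of 13 tested, 8 were higher in ILCP (median 3.74) and 9 in ILC1/3P (median 3.67, or 2.89 with genes absent from CLP at their bound), and 0 were lower in either. In ILCP, 0 were lower at an unadjusted p under 0.05 and 0 by DESeq2, and in ILC1/3P 1 was lower by each. Zap70, the relative of Syk, had 2.38, 0.368 and 4.00 CPM in CLP, 27.4, 17.4 and 15.2 CPM in ILCP and 23.9 and 34.5 CPM in ILC1/3P (3.13 ± 0.75, adjusted p = 0.0276, and 3.67 ± 0.81, adjusted p = 0.00652). The ILCP call was lost without CLP replicate 1 or 2 or any 1 ILCP library and under the replicate block (highest adjusted p 0.0979). Lcp2, the relative of Blnk, rose from 7.93, 18.9 and 2.67 CPM to 339, 329 and 529 CPM in ILCP and to 73.7 and 53.2 CPM in ILC1/3P (5.36 ± 0.59, adjusted p = 0.000146, and 2.71 ± 0.56, adjusted p = 0.00474). It was lower in ILC1/3P than in ILCP (-2.65 ± 0.60, adjusted p = 0.0119), a call lost without ILC1/3P replicate 2 (adjusted p = 0.0916).

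Lck is the relative of Blk. It had 139, 68.3 and 115 CPM in CLP, 301, 133 and 250 CPM in ILCP and 103 and 39.0 CPM in ILC1/3P, overlapped with CLP in both and did not pass (adjusted p = 0.16 and 0.392). It passed as higher in ILCP with no filter on low counts and under the replicate block (lowest adjusted p 0.0143). Txk, another Tec family kinase, had no count in CLP, 210 to 300.2 CPM in ILCP and 127 and 145 CPM in ILC1/3P, at least 1888-fold and at least 944-fold higher (adjusted p = 1.21e-06 and 1.59e-06). The chains Cd3d, Cd3g and Fcer1g and the adaptor Lat rose in both, whereas the chains Cd3e and Cd247 passed in neither and Tyrobp passed in ILC1/3P alone. Cd3g, Cd3e, Cd247 and Tyrobp were named after their values were seen. Cd3g had at most 17.6 CPM in CLP, 1251 to 2096 CPM in ILCP and 2245 and 3463 CPM in ILC1/3P (adjusted p = 0.000946 and 0.000306). Cd3d had at most 0.368 CPM in CLP and 63.3 CPM or more in each other library (adjusted p = 1.23e-05 and 4.61e-06). Fcer1g, an adaptor chain of Fc and NK receptors, rose from 92.8 to 224 CPM in CLP to 544 to 920 CPM in ILCP and 3840 and 5016 CPM in ILC1/3P (2.20 ± 0.33, adjusted p = 0.00166, and 4.86 ± 0.39, adjusted p = 1.06e-05). Lat had 24.4 to 26.7 CPM in CLP, 192 to 208 CPM in ILCP and 93.8 and 109 CPM in ILC1/3P (adjusted p = 1.69e-05 and 0.000207). Exons of Lcp2, Lat, Lck, Cd3e, Cd247, Lat2, Lyn, Cd72, Cd81, Ptpn6, Pax5, Iglc2, Rag1, Rag2, Mpo, Mzb1 and Cxcr5 overlap another annotated gene. The values of these genes are uncertain because the use of strand is not given.

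**Figure D4:**
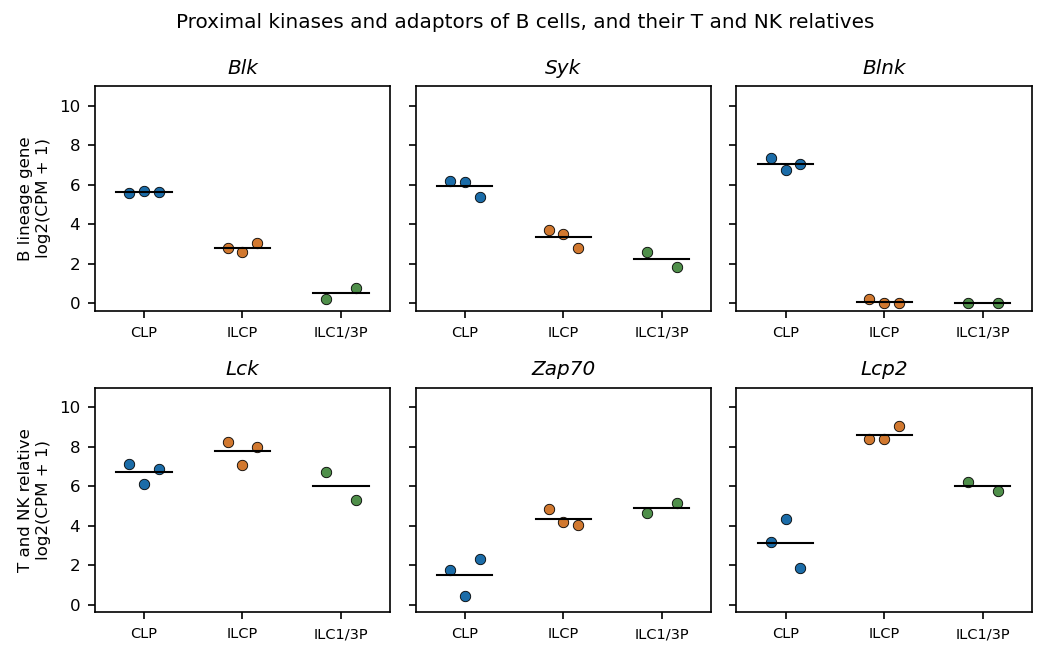
Each column pairs a kinase or adaptor of B cells (top row) with its T and NK relative (bottom row). The vertical axis is log2(CPM + 1), points are libraries and bars are group means of the plotted values. Blk, Syk and Blnk are highest in CLP, Zap70 and Lcp2 are lowest in CLP, and Lck overlaps between CLP and both other populations.

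Over all 5 lists, 63 of 66 genes were tested. In ILCP against CLP, 9 were higher and 15 lower. In ILC1/3P against CLP, 10 were higher and 17 lower, and in ILC1/3P against ILCP, 4 were higher and 5 lower. Among all genes tested, 3.91% were higher and 2.87% lower in the first comparison, and 11.8% and 11.7% in the second. In ILC1/3P against ILCP, 8.06% were higher and 8.25% lower, so the list counts there lay near the shares of all genes.

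Genes of other cell types were read beside the members. The list of 8 pro-B genes, Ebf1, Pax5, Rag1, Rag2, Dntt, Cd24a and Il7r among them, summed to 1678 to 2320 CPM in CLP, 569 to 574 CPM in ILCP and 228 to 243 CPM in ILC1/3P. Il7r, which encodes the CD127 of all 3 gates, gave 461 to 501 CPM of the ILCP sums and 214 and 215 CPM of the ILC1/3P sums. Dntt, which adds bases to rearranging heavy chains, had at most 1.47 CPM in any library. Ly6d, which marks B-biased CLP, had 636 to 1001 CPM in CLP and at most 20.4 CPM elsewhere. The mature B list had a count for 7 of 8 genes over the pooled CLP libraries, but for 5, 3 and 5 in the single ones. It summed to 45.2 to 74.7 CPM in CLP, with Cd40 at 0 and Ms4a1 at 0 to 4.60 CPM. In ILCP it summed to 1.52 to 53.2 CPM and in ILC1/3P to 9.45 to 12 CPM. Single genes made up most of the larger sums. Ighd gave 26.3 to 58.3 CPM in CLP, and the chemokine receptor gene Cxcr5 gave 23.5, 0.415 and 53.1 CPM in the ILCP libraries. The plasma cell list summed to 1438 to 1929 CPM in CLP, most of it Mzb1, with at most 159 CPM in any ILCP library and at most 67.3 CPM in any ILC1/3P library. Myeloid genes, Mpo foremost, summed to 740 to 982 CPM in CLP against 8.87 to 14.8 CPM in ILCP and 42.3 to 70.4 CPM in ILC1/3P. Of these genes, 8 of 8 had a count over the pooled CLP libraries and 7 of 8 in each single one. The plasmacytoid dendritic list summed to 317 to 408 CPM in CLP, 124 to 208 CPM in ILCP and 113 to 162 CPM in ILC1/3P, with Siglech at 0 outside CLP. The mast cell and basophil list summed to at most 2.96 CPM in CLP to 481 to 632 CPM in ILCP and to 185 and 239 CPM in ILC1/3P, nearly all of it Cpa3, with Mcpt8, Fcer1a and Ms4a2 at 0 in all libraries. Erythroid and megakaryocyte genes stayed at or below 31.7 CPM and hepatocyte genes at or below 23.0 CPM in each library. The part of such cells in the members' levels was not tested.

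The genes most like 3 of the members over the 8 libraries were sought by the smallest root mean square difference of log2(CPM + 1), each gene centred on its own mean. For Cd79a they were Il12a (0.875), Mpo (0.905) and Flt3 (1.09), a cytokine subunit, a granule enzyme and the receptor that defines the CLP gate. For Igll1 they were Siglech (0.474), Pou2af1 (0.479) and Tifab (0.489), each with no count outside CLP. For Btk they were Mpeg1 (0.558), Myo1c (0.585) and Rgl1 (0.605). The 8 points share 3 populations and their libraries, so such likeness mainly restates which genes were high in CLP.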

How the data were processed

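The 8 libraries (3 of sorted CLP, 3 of ILCP, 2 of ILC1/3P) were grouped by their titles. Per the labels' protocols, cDNA was made in the cell lysate with a SMARTer Ultra Low kit, PCR-amplified and read on a NovaSeq6000. The deposited table gives each gene a whole-number count and the authors' FPKM per library. Reads were placed on mm10, per the submitters' processing notes. Not given in the sources used here are the aligner, the counting program, the annotation and whether strand was used. All libraries carry 1 batch date, and 0 value columns were left unmapped.

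Counts were tested with edgeR 4.0.16 (R 4.3.3). Genes were filtered with filterByExpr at its minimum count of 10, which left 13436, scaled by TMM and fitted with a robust quasi-likelihood model over all 8 libraries, 1 mean per group. Residual degrees of freedom were 5 and prior ones 6.49, and the biological coefficient of variation was 0.679. Adjusted p-values are two-sided Benjamini-Hochberg values over all genes tested, with a threshold of 0.05, and SE came from the F statistic. CPM are counts relative to TMM-adjusted library size. Folds against a group without counts set its pooled count to a floor of 3, and ratios with 1 to 3 counts carry 95% counting intervals. PCR reads without molecular identifiers are not independent molecules. The programs were tested on simulated data.

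The 9 members, the gene lists and the alternatives were chosen with earlier results of these data known. All members are named, with up to 5 genes per list of the smallest p against CLP plus Syk, Ebf1, Pax5, Ighm, Zap70, Lcp2 and Lck. Some genes that this rule takes are not reported here. For Cd79a, Igll1 and Btk the 3 most alike genes are named, with predicted genes, pseudogenes and receptor segments set aside. Alternatives were RLE size factors, library size as the only scaling, no filter on low counts, DESeq2 1.42.0, a fit of the 2 groups compared, the replicate number as a block and leaving out each library. GENCODE M21 gave exon overlaps and transcripts, and RefSeq (GRCm38.p6) gave promoter windows.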

Additional observations from a re-analysis of the deposited data

How the results depend on the processing

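All 9 members kept the direction of their change against CLP in every alternative run. Vpreb2, Vpreb3, Igll1, Cd79a, Cd79b, Blnk and Blk also kept their call in both comparisons with CLP. Leaving out 1 library at a time, 7 to 9 members were lower in ILCP than in CLP and 7 to 9 in ILC1/3P, the changes being in Vpreb1 and Btk. Library size as the only scaling moved the median of all genes by -0.68 on the log2 scale in ILC1/3P against CLP and by -0.63 in ILC1/3P against ILCP. In ILC1/3P against ILCP, 2 members were then lower, Cd79b among them (-0.89, adjusted p = 0.018), and 0 were lower when only these 2 groups were fitted. Leave-one-out fits gave 0 to 1 member higher, Cd79a without ILCP replicate 2.

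Pathway genes lower in ILC1/3P than in CLP numbered 27 with library size alone and 11 to 19 leaving out 1 library, 11 without CLP replicate 1 and without ILC1/3P replicate 1. Those lower in ILC1/3P than in ILCP numbered 13 with library size alone, 8 by DESeq2 and 2 to 6 leaving out 1 library, 2 without ILCP replicate 1, ILCP replicate 3 or ILC1/3P replicate 2. Those higher in ILC1/3P than in ILCP numbered 7 with no filter. The log2 differences between ILC1/3P and ILCP that changed sign were not called in either form. Leaving out 1 library, they ran from -6.14 (without ILC1/3P replicate 2) to 1.74 for Vpreb1, from -4.25 (without the same library) to 2.27 for Vpreb2, from -5.06 to 4.70 for Vpreb3 (4.70 without ILCP replicate 2, 0.44 without ILC1/3P replicate 2) and from -7.32 to 0.66 for Btk (0.66 without ILCP replicate 1, 0.096 without ILC1/3P replicate 1). The cause was not tested.

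The labels do not say whether the replicate numbers in the titles pair the libraries. Deviations of same-numbered CLP and ILCP libraries correlated at 0.121, 0.070 and -0.0049. For CLP and ILCP libraries of unlike number the values ran from -0.126 to 0.053. Such correlations among so few libraries cannot tell whether same-numbered libraries share an animal or litter, so pairing remains unknown. With the replicate number as a block, 8 members were lower in ILCP, 8 in ILC1/3P and 1 in ILC1/3P against ILCP, and 14, 14 and 4 pathway genes were lower. The block ended the call of Btk in ILC1/3P and those of list genes given with their values. With 2 or 3 libraries per group and at most 61 counts per member and group outside CLP except for Cd79b and Blk, differences between ILCP and ILC1/3P in the other members were not detectable at this depth unless large.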
